A study of Mus musculus with 2 samples.

Results

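The cells described here are steroid-producing cells of the mouse adrenal cortex with little or no RNA of either terminal enzyme of the zones, Cyp11b2 (aldosterone synthase) or Cyp11b1 (11β-hydroxylase), and they are called double-low cells here. They were chosen by their counts. A unique molecular identifier (UMI) marks 1 captured RNA molecule, and CPM (counts scaled to a total of 1000000) gives a gene's UMIs relative to all UMIs of the cell or of the summed cells. A barcode passed with at least 1000 UMIs, 500 genes and at most 30% mitochondrial UMIs, and a passing cell was double-low with no Cyp11b2 UMI, Cyp11b1 below 100 CPM and Star of at least 500 CPM. It also needed Wnt4 or Shh of at least 100 CPM, Malat1 of at least 2000 CPM, Nr4a1 plus Nr4a2 below 600 CPM, Aldh1a1 below 500 CPM and no Mki67 or Top2a UMI. Of 7328 barcodes 6904 passed, and 1798 of these were double-low: 1248 of 4892 cells in library 1 (25.5%, exact Clopper-Pearson 95% interval 24.3 to 26.8%) and 550 of 2012 in library 2 (27.3%, 25.4 to 29.3%). Both intervals cover counting error only.

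The cells came from 26 adrenal glands of male mice aged 15 weeks, labelled WT with SF1-Cre and Rosa mTmG, and were profiled in 2 droplet libraries of 1 group. SF1-Cre is active in cells that express or descend from cells expressing Nr5a1 (steroidogenic factor 1), and mTmG is a reporter that switches to membrane GFP after Cre. The sort kept Ruby-positive, DAPI-negative cells (DAPI marks dead cells), the labels name no GFP gate, and they do not say which glands went into which library. The libraries held 92905273 and 28023733 UMIs and shared 4 barcodes, 3 of them a double-low cell in a library.

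The outer adrenal cortex lies in layers under a capsule. Cells of the zona glomerulosa, directly under it, receive and send WNT signals, make aldosterone with Cyp11b2 and respond to angiotensin II and potassium, and those of the zona fasciculata, further in, make corticosterone with Cyp11b1 and respond to the pituitary hormone ACTH. Shh, the ligand of the hedgehog pathway, is made by subcapsular steroidogenic cells and signals to the capsule, and in mice descendants of Shh-expressing cells contribute to both zones. Wnt4 is a WNT ligand of the zona glomerulosa.

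The genes that chose the cells are described with no test. In the double-low cells of libraries 1 and 2 the summed levels were 2327 and 2345 CPM for Star, which carries cholesterol into mitochondria, 2389 and 2212 CPM for Wnt4, and 293 and 326 CPM for Shh. Cyp11b1 summed to 11.6 and 10.8 CPM, and 1046 and 469 of the cells had no Cyp11b1 UMI. Both Wnt4 and Shh reached 100 CPM in 1058 and 428 cells, Wnt4 alone in 190 and 112, and Shh alone in 0 and 10. So most of the cells carried both ligands, and 80 and 67 cells had no Shh UMI. The ligands were not particular to these cells: 96.24 and 90.95% of all passing cells met the limit on Wnt4 or Shh. Cyp11b1-high cells (Cyp11b1 of at least 500 CPM, else the same rule) had 287 and 396 CPM of Shh and 1650 and 1376 CPM of Wnt4. Steroidogenic genes that the rule did not use were present: Nr5a1 summed to 267 and 253 CPM and Cyp11a1, which makes pregnenolone from cholesterol, to 3142 and 3307 CPM. Hsd3b1, Cyp21a1, Scarb1, Fdx1 and Mc2r, the other markers of steroidogenic cortex besides Star, had UMIs in both libraries as well. Of the defining markers of other adrenal cells, Th, Dbh and Pnmt (medulla), Sox10 (glia), Cdh5 (endothelium), Col1a1, Pdgfrb and Lum (capsule and stroma), and Pik3c2g and Akr1c18 (X-zone) were at 0 in the double-low cells of both libraries. Other genes of these lists had UMIs, in 4 and 1 of 8 medulla genes in libraries 1 and 2, 3 and 3 of 5 glia genes, 7 and 6 of 8 endothelial genes, 6 and 5 of 10 capsule and stroma genes and 3 and 2 of 5 X-zone genes. The endothelial genes summed to 11.5 and 9.98 CPM in double-low cells, against 2.43 and 2.96 CPM in Cyp11b2-positive cells, of which Kdr (a VEGF receptor) made up 9.48 and 7.49 CPM against 1.60 and 1.48 CPM. The same genes summed to 16.8 and 11.9 CPM in Cyp11b1-high cells and 18.1 and 26.1 CPM in intermediate cells (Cyp11b1 of 100 to 500 CPM). The capsule and stroma genes summed to 152 and 168 CPM in double-low cells, against 150.3 and 164 CPM in Cyp11b2-positive cells. The part of such cells in the results was not tested.

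The zeros behind the rule are limited by depth. Double-low cells held medians of 17130 and 14750 UMIs in libraries 1 and 2, and at these depths a count of 0 allows 175 and 203 CPM in a cell (3 UMIs). Cells with Cyp11b2 of at least 100 CPM had median Cyp11b2 levels of 203 and 246 CPM. When every cell was thinned to 5000 UMIs before the rule was applied, 37.9 and 38.1% of the cells of libraries 1 and 2 met it.

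The 3 classes set against them met the same rule except for 1 enzyme: Cyp11b2-positive cells (Cyp11b2 of at least 100 CPM, 648 and 268 cells in libraries 1 and 2), Cyp11b1-high cells (Cyp11b1 of at least 500 CPM, 471 and 314) and intermediate cells (Cyp11b1 of 100 to 500 CPM, 298 and 123). A further 466 and 132 cells had Cyp11b2 UMIs below 100 CPM and otherwise met the rule. They are in neither the double-low nor the Cyp11b2-positive class, so these 2 classes do not adjoin. The part of this gap in their differences was not tested. UMIs were summed per class and library, and classes were compared with edgeR's quasi-likelihood test with a term for library. A p-value was adjusted by the Benjamini-Hochberg method over all genes tested, and a gene passed with an adjusted p below 0.05. Differences are log2 values of double-low cells minus the other class, with the standard error (SE) of the fit. The p-values measure only the spread between sums of 2 libraries, which may be technical, and all comparisons share the sums of the double-low cells. Every class sum holds RNA of many cells, so fewer expressing cells and less RNA per cell cannot be told apart in it.

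Against Cyp11b2-positive cells, the double-low cells had less RNA of genes for making and taking up cholesterol, of mitochondrial-encoded genes and of the ferredoxin Fdx1. They had more RNA of Ly6d, of the Id1 and Id3 regulators, of the cholesterol exporter Abca1 and of the proteoglycan Acan. Genes of zona glomerulosa function such as Agtr1b and Vsnl1 were present and lower. Of 12370 genes tested 1813 passed (14.7%), 776 higher (6.27%) and 1037 lower (8.38%) in double-low cells, and 147 of the higher (1.19% of all tested) and 128 of the lower ones (1.03%) differed at least 2-fold. The median over all genes tested was 0.02. Several of these levels were not particular to double-low cells. In Cyp11b1-high cells of libraries 1 and 2, Acan was at 54.9 and 41.5 CPM and Abca1 at 85.3 and 130 CPM, above the double-low cells. Id1 was at 31.5 and 59.4 CPM there, Id3 at 19.6 and 41.1 CPM and Fdx1 at 1690 and 1309 CPM.

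Among zona glomerulosa genes, Vsnl1 (a neuronal calcium sensor protein, chr12:11325242-11436613) had 392 and 515 CPM in double-low cells of libraries 1 and 2, against 745 and 1008 CPM in Cyp11b2-positive cells, a difference of -0.99 ± 0.09 (SE; adjusted p = 9.4e-07). Agtr1b, an angiotensin II receptor (chr3:20314473-20367177), had 40.5 and 67.8 CPM against 104 and 154 CPM (-1.33 ± 0.07, adjusted p = 4.61e-09). Dab2, an endocytic adaptor protein, had 1377 and 2094 CPM against 1827 and 2892 CPM (-0.48 ± 0.07, adjusted p = 0.000125). Each of the 3 genes was lower in double-low cells within each library. Hsd3b6, a 3β-hydroxysteroid dehydrogenase of the mouse zona glomerulosa, went opposite ways in the libraries, with 329 and 229 CPM against 254 and 265 CPM (adjusted p = 0.743). Reads of Hsd3b6 and its close paralog Hsd3b1 may be shared. Of the 9 glomerulosa identity genes tested, 1 was higher and 5 lower, with a median of -0.19.

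Fdx1, the ferredoxin that passes electrons to mitochondrial steroid P450 enzymes (chr9:51943306-51963556), had 1895 and 1566 CPM in double-low cells against 5419 and 5550 CPM in Cyp11b2-positive cells (-1.72 ± 0.11, adjusted p = 1.91e-08). Scarb1, the HDL receptor that takes up cholesterol esters, had 162 and 198 CPM against 325 and 396 CPM (-1.04 ± 0.09, adjusted p = 4.72e-07). The P450 enzyme at the head of the pathway did not follow them. Cyp11a1 differed by 0.00 ± 0.04 (adjusted p = 0.991), with 3142 and 3307 CPM against 3071 and 3190 CPM. Cyp21a1, steroid 21-hydroxylase, was lower by a small amount (-0.24 ± 0.06, adjusted p = 0.00715). Cyb5b, an outer mitochondrial membrane cytochrome b5, was higher (0.30 ± 0.05, adjusted p = 0.00021). Of 18 steroid synthesis genes tested 2 were higher and 9 lower, with a median of -0.13. Because Fdx1, Agtr1b and Id3 set the double-low cells apart from Cyp11b2-positive cells in opposite directions, their RefSeq promoter sequences (build GRCm38.p6, 250 bases before to 50 after the start) are shown, with a match to the steroidogenic factor 1 type site CAAGGTNA in capitals.
Fdx1, chr9:51963553-51963852, minus strand: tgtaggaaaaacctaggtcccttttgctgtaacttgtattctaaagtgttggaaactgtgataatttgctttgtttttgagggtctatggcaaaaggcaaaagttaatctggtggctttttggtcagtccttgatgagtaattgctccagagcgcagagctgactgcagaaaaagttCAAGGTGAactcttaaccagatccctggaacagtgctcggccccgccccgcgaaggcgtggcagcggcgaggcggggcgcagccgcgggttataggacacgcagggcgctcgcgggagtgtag
Agtr1b, chr3:20367128-20367427, minus strand: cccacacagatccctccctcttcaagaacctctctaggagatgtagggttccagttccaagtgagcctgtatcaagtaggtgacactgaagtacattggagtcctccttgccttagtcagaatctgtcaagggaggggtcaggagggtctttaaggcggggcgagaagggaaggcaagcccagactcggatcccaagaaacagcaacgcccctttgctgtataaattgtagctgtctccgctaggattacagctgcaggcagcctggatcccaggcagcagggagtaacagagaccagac
Id3, chr4:136143572-136143871, plus strand: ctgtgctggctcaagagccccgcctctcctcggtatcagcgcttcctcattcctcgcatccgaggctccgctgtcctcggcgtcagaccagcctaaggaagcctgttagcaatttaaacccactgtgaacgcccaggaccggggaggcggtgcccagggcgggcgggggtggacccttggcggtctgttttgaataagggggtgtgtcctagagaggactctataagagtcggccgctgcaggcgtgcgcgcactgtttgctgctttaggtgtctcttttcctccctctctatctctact
Fdx1 held 1 match on either strand, and Agtr1b and Id3 held none, nor did either of the 2 Vsnl1 promoters. The motif occurred in 1314 of 32851 promoters of the same length (4.0%) and was chosen after the Fdx1 sequence had been seen, so the match is a description.

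Cholesterol synthesis and uptake was the list with the most lower genes: 22 of 25 tested were lower in double-low cells and none was higher, with a median of -0.81. Cyp51 (lanosterol demethylase) had 23.6 and 54.6 CPM against 63.6 and 128 CPM in Cyp11b2-positive cells (-1.38 ± 0.08, adjusted p = 4.72e-09). Idi1 (isopentenyl diphosphate isomerase) had 41.5 and 70.1 CPM against 97.8 and 155 CPM (-1.24 ± 0.08, adjusted p = 3.51e-08). In each library 24 of the 25 genes had the lower value in double-low cells, the exceptions being Ebp in library 1 and Scap in library 2. Abca1, which exports cholesterol from cells, went the other way, with 40.4 and 55.3 CPM against 9.80 and 12.9 CPM (2.00 ± 0.15, adjusted p = 1.45e-07).

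All 13 mitochondrial-encoded genes tested were lower in double-low cells, with a median of -0.49. mt-Cytb had 4701 and 4327 CPM in double-low cells against 7474 and 7442 CPM in Cyp11b2-positive cells (-0.77 ± 0.05, adjusted p = 2.44e-08). Of 41 nuclear genes of oxidative phosphorylation 15 were lower and none higher (median -0.12), so the nuclear genes moved less. The mitochondrial matrix chaperones Hspd1 (-0.88 ± 0.05, adjusted p = 4.61e-09) and Hspe1 (-0.68 ± 0.04, adjusted p = 1.54e-08) were also lower, within a chaperone list of 24 that had 1 higher and 3 lower. That list had 16.7% called, near the 14.7% of all genes. The median share of mitochondrial UMIs was 5.15 and 4.54% in double-low cells and 7.0 and 7.1% in Cyp11b2-positive cells, and the median depth was 17130 and 14750 UMIs against 20932 and 18568 UMIs. With cells limited to at most 15% mitochondrial UMIs all 13 genes still passed as lower, and likewise in cells of at least 10000 UMIs or thinned to 5000 UMIs.

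Signalling genes differed in part. Of 35 genes of angiotensin, potassium and calcium signalling 6 were higher and 11 lower (median -0.02), 48.6% called beside 14.7% of all genes. Kcnk2, a potassium channel, was lower (-1.07 ± 0.21, adjusted p = 0.00221), and Plcb3 (a phospholipase C, 0.53 ± 0.09, adjusted p = 0.00053) and Rgs2 (a regulator of G protein signalling, 0.35 ± 0.07, adjusted p = 0.00223) were higher. Of 25 ACTH and cAMP genes 1 was higher and 8 lower (median -0.15). The phosphodiesterase Pde10a had 42.6 and 52.5 CPM in double-low cells against 90.0 and 162 CPM in Cyp11b2-positive cells (-1.36 ± 0.12, adjusted p = 9.24e-07), and the cAMP-responsive repressor Crem had 27.6 and 32.2 CPM against 59.2 and 64.6 CPM (-1.11 ± 0.08, adjusted p = 5.76e-08). Mrap, the accessory protein of the ACTH receptor, was lower too (-0.50 ± 0.09, adjusted p = 0.0011), while the receptor gene Mc2r differed by 0.13 ± 0.05 (adjusted p = 0.0843). Mrap also counts among 10 fasciculata identity genes, of which 1 was higher and 4 lower (median -0.12). Scarb1 and the WNT list gene Dkk3 count there as well. Dkk3 had 41.6 and 37.5 CPM in Cyp11b2-positive cells and 11.6 and 12.4 CPM in Cyp11b1-high cells, so the list is not only of genes high in the latter.

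With 23.3% called beside 14.7% of all genes, the WNT list had 2 of 30 genes higher and 5 lower than in Cyp11b2-positive cells (median -0.04). They included Dkk3, a secreted Dickkopf-family protein (-1.73 ± 0.10, adjusted p = 1.18e-08), and Wnt5a (0.62 ± 0.13, adjusted p = 0.00382), whose call was lost with thinned cells (adjusted p = 0.0832). The WNT targets Axin2 (0.14 ± 0.07, adjusted p = 0.197) and Lef1 (-0.19 ± 0.06, adjusted p = 0.0457) lay near 0, and the Lef1 call was lost with DESeq2 (adjusted p = 0.193) and with thinned cells (adjusted p = 0.431). Hedgehog and FGF signalling had 4 of 22 genes higher and 1 lower (median 0.11), 22.7% called beside 14.7% of all genes. Gas1, a hedgehog co-receptor, had 55.8 and 65.3 CPM against 40.0 and 35.4 CPM (0.58 ± 0.09, adjusted p = 0.000319), and Fgf1, a growth factor, was lower (-0.73 ± 0.09, adjusted p = 4.03e-05). Ptch1, the hedgehog receptor and target, passed in the main test (0.27 ± 0.08, adjusted p = 0.0261) and not with DESeq2 (adjusted p = 0.325) or thinned cells (adjusted p = 0.206).

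Among transcription factor and progenitor genes 7 of 29 were higher and 4 lower (median 0.03). Id3, an inhibitor of basic helix-loop-helix factors, had 25.1 and 32.2 CPM in double-low cells against 6.12 and 5.29 CPM in Cyp11b2-positive cells (2.13 ± 0.20, adjusted p = 1.77e-06). Its relative Id1 had 31.0 and 32.7 CPM against 8.83 and 7.41 CPM (1.84 ± 0.21, adjusted p = 1.41e-05). Cd24a, which encodes a small surface glycoprotein, was lower, with 14.4 and 9.20 CPM against 35.6 and 26.5 CPM (-1.40 ± 0.15, adjusted p = 5.42e-06). Of 19 immediate early genes, which respond quickly to stimulation and also to tissue dissociation, 9 were higher and 4 lower (median 0.39). They included Fosl2 (1.04 ± 0.12, adjusted p = 1.01e-05) and Junb (0.73 ± 0.08, adjusted p = 5.61e-06) on the higher side and Nr4a3 (-0.56 ± 0.10, adjusted p = 0.00063) on the lower. The rule limits the related Nr4a1 and Nr4a2 in both classes.

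The largest higher genes by the naming rule had varied roles. Acan, a cartilage-type proteoglycan, had 31.0 and 24.6 CPM in double-low cells against 6.53 and 4.87 CPM in Cyp11b2-positive cells (2.22 ± 0.12, adjusted p = 4.72e-09). Ighm, the constant region of the immunoglobulin M heavy chain, had 94.3 and 74.0 CPM against 21.5 and 14 CPM (2.14 ± 0.11, adjusted p = 2.92e-09). Its UMIs came from 953 double-low cells, with 0.497% from the highest cell, and cells containing Ptprc RNA, with Star below 500 CPM, held 726 and 681 CPM. Pla2g5, a secreted phospholipase A2 (2.00 ± 0.11, adjusted p = 4.61e-09), Fxyd1, a regulator of the sodium pump (1.66 ± 0.08, adjusted p = 1.21e-09), and Ly6d, a small surface protein held by a lipid anchor (1.65 ± 0.08, adjusted p = 1.21e-09), completed the higher side. In Cyp11b1-high cells Ighm was at 122.6 and 112 CPM and Fxyd1 at 108 and 92.3 CPM, so neither was particular to double-low cells.

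On the lower side, Slc6a5, a glycine transporter, had 3.96 and 8.80 CPM in double-low cells against 21.5 and 43.2 CPM in Cyp11b2-positive cells (-2.42 ± 0.16, adjusted p = 3.95e-08). Acvr1c, an activin-type receptor, differed by -2.11 ± 0.11, and Camk2n2, an inhibitor of calcium/calmodulin kinase II, by -1.92 ± 0.15. Dkk3 of the WNT list (-1.73 ± 0.10), Clstn3 (-1.70 ± 0.08), Col18a1 (-1.67 ± 0.06), a basement membrane collagen, and Procr (-1.64 ± 0.17), the protein C receptor, followed. All 7 passed, with adjusted p-values of at most 5.5e-06, and were lower in each library. The basement membrane collagens Col4a1 (-0.46 ± 0.07) and Col4a2 (-0.50 ± 0.07) were lower as well, within 24 adhesion and matrix genes of which 4 were higher and 5 lower. That list had 37.5% called, beside 14.7% of all genes. With DESeq2 the lower counts were 3 of 9 glomerulosa identity genes and 1 of 30 WNT genes, and 1 of 22 hedgehog and FGF genes was higher. Ribosomal protein genes were higher in 15 of 40 and lower in none (median 0.11, and 8 of 40 among cells of at least 10000 UMIs). G1/S and S phase genes were higher in 4 of 22 and lower in none (median 0.20), 18.2% called beside 14.7% of all genes. Interferon and antigen presentation genes were higher in 5 of 21 and lower in 1 (median 0.17), 28.6% called beside 14.7% of all genes.

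**Figure D1:**
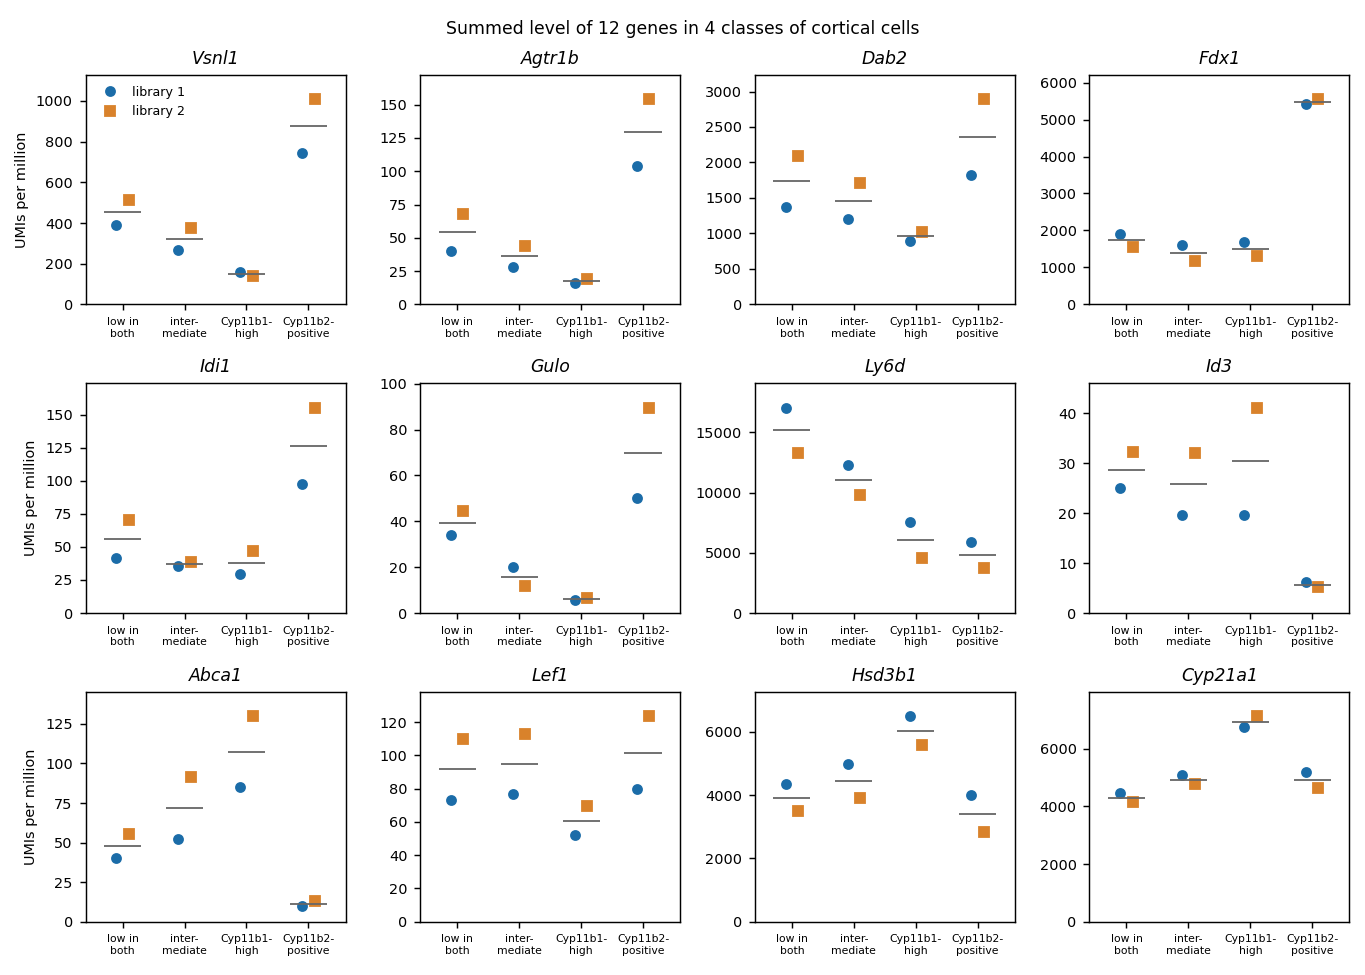
Summed level (CPM, linear axes from 0) of 12 genes in double-low (labelled low in both), intermediate, Cyp11b1-high and Cyp11b2-positive cells; circles are library 1, squares library 2 and lines the mean of the 2 libraries. Vsnl1 lay at 392 and 515 CPM in double-low cells, below Cyp11b2-positive cells (745 and 1008 CPM) and above Cyp11b1-high cells (159 and 141 CPM), and Ly6d was highest in double-low cells in both libraries among the 4 classes drawn.

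Against Cyp11b1-high cells, the double-low cells had more RNA of zona glomerulosa genes, of WNT targets and of the vitamin C enzyme Gulo. They had less RNA of the steroid enzymes Cyp11a1, Hsd3b1 and Cyp21a1, of 11 of 24 chaperone and unfolded protein response genes and of the regulators Hhex and Cited1. Of 12370 genes tested 2025 passed (16.4%), 1150 higher (9.3%) and 875 lower (7.07%). At least 2-fold differences were found for 174 of the higher (1.41% of all tested) and 197 of the lower ones (1.59%), and the median over all genes tested was 0.02. Median depths were 17130 and 14750 UMIs in double-low cells and 17859 and 15103 UMIs in Cyp11b1-high cells, and mitochondrial shares 5.15 and 4.54% against 5.08 and 4.17%.

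Vsnl1 had 392 and 515 CPM in double-low cells against 159 and 141 CPM in Cyp11b1-high cells (1.61 ± 0.10, adjusted p = 4.01e-08). Agtr1b had 40.5 and 67.8 CPM against 16.0 and 19.4 CPM (1.60 ± 0.10, adjusted p = 4.01e-08), and Dab2 had 1377 and 2094 CPM against 894 and 1023 CPM (0.88 ± 0.07, adjusted p = 4.26e-07). Hsd3b6 was higher by 0.48 ± 0.11 (adjusted p = 0.00547), a call lost with DESeq2 (adjusted p = 0.124). Of the 9 glomerulosa identity genes 8 were higher and none lower (median 0.63), and all 9 had the higher value in double-low cells in each library. Of 35 angiotensin, potassium and calcium signalling genes 12 were higher and 5 lower (median 0.10), among them Rgs4 (0.91 ± 0.11, adjusted p = 2.08e-05) on the higher side and Agtrap, the receptor-associated protein (-0.47 ± 0.09, adjusted p = 0.00123), and Rgs2 (-0.38 ± 0.07, adjusted p = 0.00109) on the lower.

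The share of cells with a UMI gave the same order of classes. With every cell thinned to 5000 UMIs, Vsnl1 was found in 70.0% of double-low cells of library 1 and 79.0% of library 2, in 60.1 and 64.8% of intermediate cells, in 36.5 and 40.8% of Cyp11b1-high cells and in 93.3 and 96.4% of Cyp11b2-positive cells. Agtr1b was found in 16.5 and 21.1% of double-low cells, in 9.46 and 16.4% of intermediate cells, in 5.95 and 8.09% of Cyp11b1-high cells and in 37.2 and 45.4% of Cyp11b2-positive cells. Cells with Ptprc RNA, taken as leukocytes that should lack both genes, were passing cells with a Ptprc UMI and Star below 500 CPM. They were thus chosen in part for little cortical RNA. None of 40 and 28 such thinned cells held a UMI of either gene, which allows up to 8.81 and 12.3% (upper exact 95% limits). Without thinning 1.32% of them held Vsnl1 in library 1 and 0% in library 2. Thinning left out 26 and 56 double-low cells, and without thinning Vsnl1 was found in 87.6 and 88.7% of double-low cells and Agtr1b in 36.5 and 42.2%. In intermediate cells of library 2 the 95% interval for Agtr1b, 10.3 to 24.2%, overlapped that of double-low cells, 17.5 to 24.9%.

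**Figure D2:**
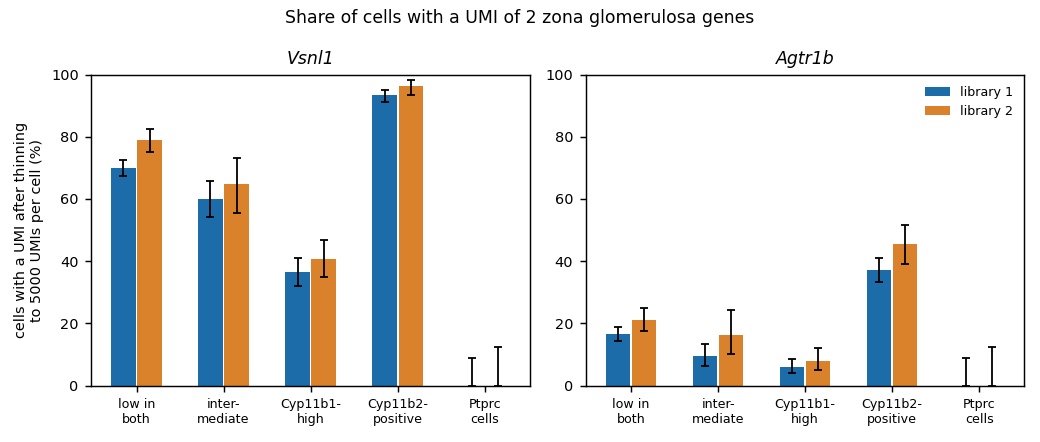
Percent of cells with a UMI of Vsnl1 or Agtr1b after thinning to 5000 UMIs per cell, by class and library; bars start at 0 and whiskers are exact 95% intervals for counting error. Vsnl1 was found in 70.0 and 79.0% of double-low cells and in 36.5 and 40.8% of Cyp11b1-high cells, and in none of the cells with Ptprc RNA and Star below 500 CPM.

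Steroid pathway genes moved in both directions. Cyp21a1 had 4454 and 4141 CPM in double-low cells against 6761 and 7137 CPM in Cyp11b1-high cells (-0.64 ± 0.06, adjusted p = 9.93e-07). Hsd3b1, the main 3β-hydroxysteroid dehydrogenase of the cortex, had 4352 and 3483 CPM against 6494 and 5578 CPM (-0.57 ± 0.06, adjusted p = 4.46e-06). Cyp11a1 had 3142 and 3307 CPM against 4303 and 4577 CPM (-0.40 ± 0.04, adjusted p = 2.57e-06). These 3 enzymes were lower in double-low cells in each library, and Por, which supplies electrons to Cyp21a1, was higher (0.33 ± 0.05, adjusted p = 0.000292). Of 18 steroid synthesis genes 4 were higher and 5 lower (median 0.01). Of 10 fasciculata identity genes 1 was higher and 6 lower (median -0.50). They included Susd3 (-1.22 ± 0.12, adjusted p = 2.15e-06), Akr1b7, an aldose reductase-like enzyme (-0.64 ± 0.11, adjusted p = 0.000955), Mrap (-0.50 ± 0.09, adjusted p = 0.00112) and Scarb1 (-0.50 ± 0.09, adjusted p = 0.000964). Mc2r differed by -0.13 ± 0.05 (adjusted p = 0.0691), and Nr5a1, the steroidogenic master regulator, by 0.11 ± 0.06 (adjusted p = 0.21).

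WNT pathway genes were higher in 11 of 30 and lower in 2 (median 0.14). That list had 43.3% called and the hedgehog and FGF list 40.9%, beside 16.4% of all genes. Nkd1, a WNT target and feedback inhibitor, had 186 and 205 CPM in double-low cells against 105 and 83.9 CPM in Cyp11b1-high cells (1.08 ± 0.09, adjusted p = 4.84e-07). Rspo3, a secreted enhancer of WNT signalling, had 29.2 and 18.5 CPM against 16.8 and 6.63 CPM (1.04 ± 0.13, adjusted p = 2.7e-05). Axin2 (0.52 ± 0.07, adjusted p = 9.69e-05) and Lef1 (0.63 ± 0.07, adjusted p = 4.53e-06) were higher as well. Wnt5a, a ligand mostly of non-canonical WNT signalling, was lower, with 24.6 and 24.0 CPM against 49.9 and 48.2 CPM (-0.95 ± 0.12, adjusted p = 2.46e-05). Of 22 genes of the hedgehog and FGF pathways 6 passed as higher and 3 as lower (median 0.12), with Etv5 (0.65 ± 0.10) and Disp1 (0.58 ± 0.13) higher, and Spry1 (-0.84 ± 0.11) and Fgfr1 (-0.50 ± 0.07) lower. Disp1 helps release hedgehog ligands, Etv5 is a target of FGF signalling, and Spry1 inhibits it.

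Cholesterol synthesis and uptake genes were higher in 10 of 25 and lower in none (median 0.24), which fell to 6 higher with DESeq2 and with thinned cells. Cyp51 had 23.6 and 54.6 CPM in double-low cells against 17.0 and 32.9 CPM in Cyp11b1-high cells (0.66 ± 0.10, adjusted p = 0.000174). Ribosomal protein genes were higher in 28 of 40 and lower in none (median 0.15), which was 16 of 40 among cells of at least 10000 UMIs. Mitochondrial-encoded genes were higher in 5 of 13 (median 0.11, and 3 of 13 with DESeq2), and nuclear oxidative phosphorylation genes higher in 4 of 41 and lower in 1 (median 0.06). The nuclear list had 12.2% called, below the 16.4% of all genes. Chaperone and unfolded protein response genes were lower in 11 of 24 and higher in none (median -0.13), and lower in 5 of 24 with thinned cells. The endoplasmic reticulum chaperones Hspa5 (-0.50 ± 0.04, adjusted p = 1.03e-06) and Calr (-0.39 ± 0.05, adjusted p = 3.56e-05) were among them.

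Gulo, the last enzyme of vitamin C synthesis, was the largest higher gene by the naming rule, with 33.8 and 44.7 CPM in double-low cells against 5.85 and 6.41 CPM in Cyp11b1-high cells (2.70 ± 0.22, adjusted p = 4.5e-07). Eno3, an enolase of glycolysis, had 144 and 124 CPM against 36.7 and 14.8 CPM (2.34 ± 0.16, adjusted p = 1.05e-07). The others on the higher side were Ppp2r2b, a phosphatase subunit (2.05 ± 0.20), Ifi27l2a, an interferon-inducible gene (2.05 ± 0.15), Fbln1, a matrix protein (1.98 ± 0.12), Tmem158 (1.91 ± 0.13), Lrrc55, a potassium channel accessory subunit (1.81 ± 0.17), and Lmo2, a LIM domain transcription cofactor (1.79 ± 0.10). All passed in the test with adjusted p-values of at most 2.2e-06. Cd24a was higher (1.90 ± 0.24, adjusted p = 4.18e-05), with 14.4 and 9.20 CPM against 4.72 and 1.33 CPM, and Tnc, a matrix glycoprotein, was higher by 1.11 ± 0.12 (adjusted p = 5.05e-06). Several of these levels were not particular to double-low cells. Cyp11b2-positive cells had 50.4 and 89.6 CPM of Gulo and 336.5 and 352 CPM of Eno3, above the double-low cells. Fbln1, Lrrc55 and Lmo2 were also above the double-low cells there in both libraries, and Ifi27l2a was below them, at 26.8 and 22.7 CPM.

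On the lower side Mmd2 had 8.65 and 7.49 CPM in double-low cells against 54.6 and 69.6 CPM in Cyp11b1-high cells (-2.76 ± 0.18, adjusted p = 5.77e-08). Acsbg1, an acyl-CoA synthetase, had 13.2 and 18.0 CPM against 72.0 and 125 CPM (-2.51 ± 0.16, adjusted p = 7.41e-08), and Hhex, a homeobox factor, had 20.2 and 18.0 CPM against 100.3 and 135 CPM (-2.45 ± 0.19, adjusted p = 2.48e-07). Cited1, a transcription cofactor (-1.73 ± 0.18), and the complement gene C4b (-1.73 ± 0.10) were lower too. Of 29 transcription factor and progenitor genes 6 were higher and 9 lower (median 0.00), and Nr0b1, a repressor of steroidogenic genes, was lower by the fit (-0.57 ± 0.14, adjusted p = 0.00812) but not with thinned cells (adjusted p = 0.164). Fosl2 (-1.34 ± 0.09), Jun (-0.53 ± 0.07) and the cell cycle inhibitor Cdkn1c (-0.87 ± 0.07) were lower. The lists they belong to had 2 of 19 immediate early genes higher and 5 lower, and 5 of 22 G1/S and S phase genes higher and 1 lower. Interferon and antigen presentation genes were lower in 6 of 21 and higher in none (median -0.33), with B2m at -0.67 ± 0.12 (adjusted p = 0.00137). Adhesion and matrix genes were higher in 7 of 24 and lower in 4 (median 0.12), and ACTH and cAMP genes higher in 7 of 25 and lower in 6 (median 0.07). The interferon list had 28.6% called, the adhesion list 45.8% and the ACTH and cAMP list 52%, beside 16.4% of all genes. With thinned cells 4 ACTH and cAMP genes passed as higher and 3 as lower, and in the hedgehog and FGF list 2 of 22 were higher.

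The haemoglobin genes Hbb-bs, Hba-a1 and Hba-a2 also met the naming rule on the lower side, at -5.04 ± 1.17, -5.00 ± 1.02 and -5.00 ± 0.99. A single Cyp11b1-high cell of library 1 held 7557 of the 11723 erythrocyte marker UMIs of its class, and 58.9 to 63.1% of the UMIs of each gene came from 1 cell. With cells carrying blood cell markers left out, Hbb-bs differed by 0.92 (adjusted p = 0.149), and none of the 3 genes passed with DESeq2 (adjusted p = 0.1 to 0.203). Summed macrophage markers stood at 21.5 and 51.4 CPM in double-low cells against 57.7 and 8.17 CPM in Cyp11b1-high cells, with C1qb at 0 in double-low cells of library 2.

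**Figure D3:**
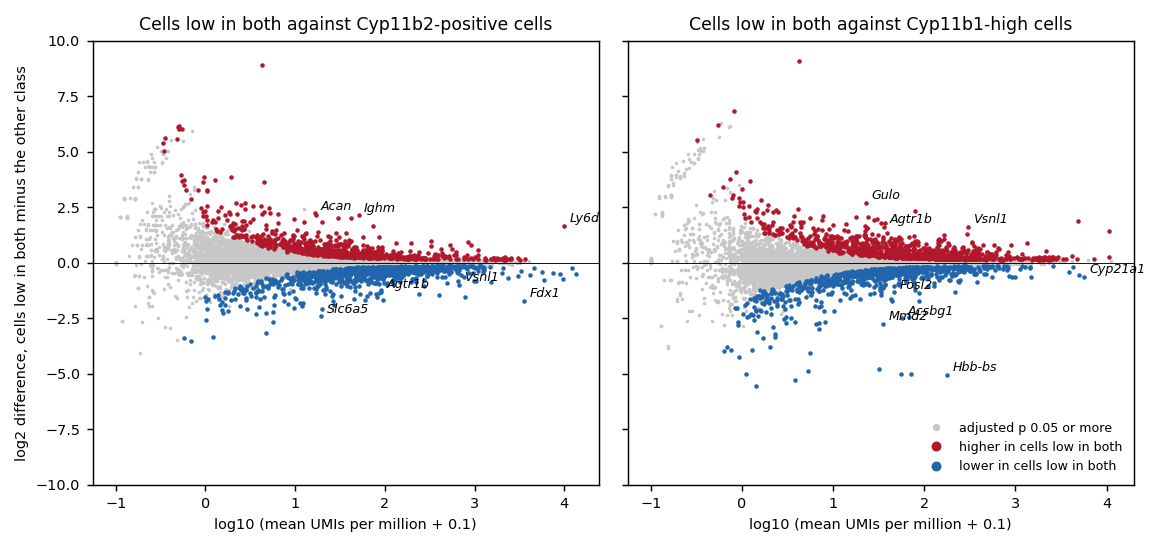
Log2 difference (double-low cells minus the other class) of each gene tested, against log10 of its mean level (CPM plus 0.1), for Cyp11b2-positive cells (left) and Cyp11b1-high cells (right); red points passed as higher and blue ones as lower in double-low cells. On the left 776 genes were higher and 1037 lower, with Fdx1 at -1.72 and Ly6d at 1.65, and on the right 1150 were higher and 875 lower, with Vsnl1 at 1.61 and Mmd2 at -2.76.

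**Figure D4:**
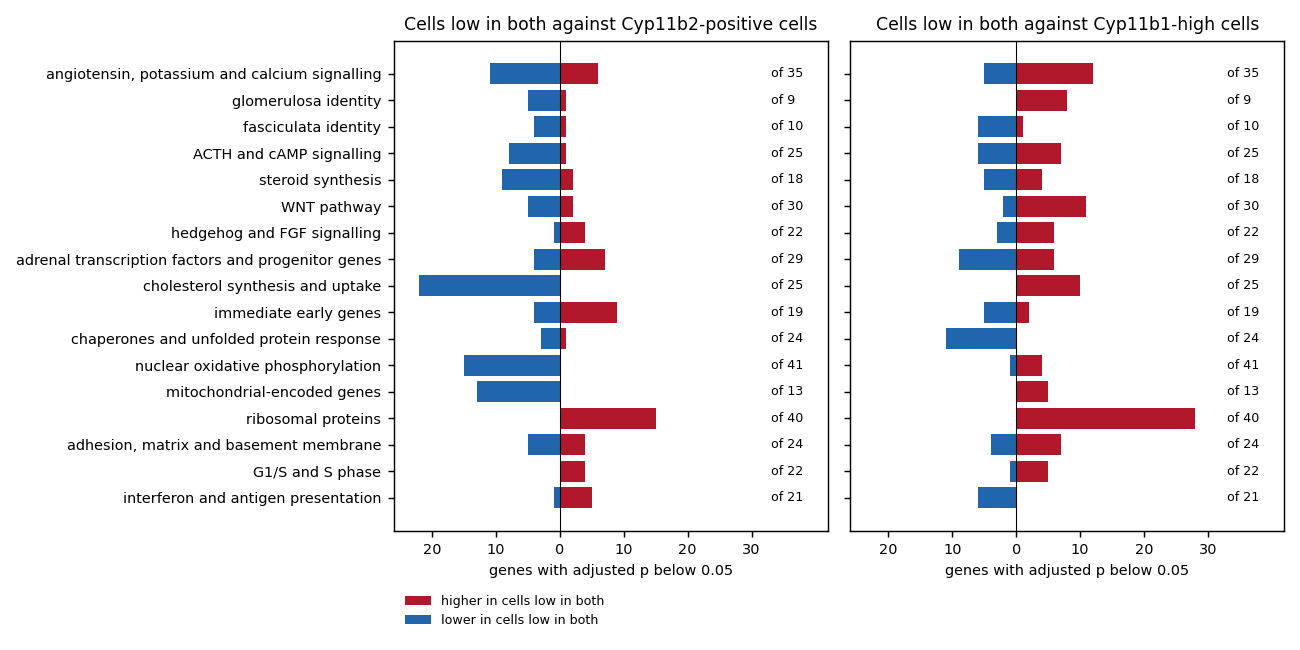
Number of genes of each of 17 lists that passed as higher (red, to the right) or lower (blue, to the left) in double-low cells, against Cyp11b2-positive cells (left) and Cyp11b1-high cells (right), with the number tested at the right of each row. Cholesterol genes were lower in 22 of 25 on the left and higher in 10 of 25 on the right, and ribosomal protein genes higher in 15 and 28 of 40.

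Intermediate cells, with Cyp11b1 of 100 to 500 CPM, adjoin the double-low cells by the rule and are the smallest class. Of 12370 genes tested 44 passed (0.356%), 27 higher (0.218%) and 17 lower (0.137%) in double-low cells, of which 5 (0.0404%) and 4 (0.0323%) differed at least 2-fold, and 1122 had an unadjusted p below 0.05. Vsnl1 had 392 and 515 CPM in double-low cells against 266 and 376 CPM in intermediate cells (0.56 ± 0.10, adjusted p = 0.0265), and Agtr1b had 40.5 and 67.8 CPM against 28.5 and 44.2 CPM (0.60 ± 0.10, adjusted p = 0.0265). Vsnl1 missed the threshold with DESeq2 (adjusted p = 0.0557), and with thinned cells Wnt5a (adjusted p = 0.359), Pdlim2 (0.0531) and Tmem158 (0.0862) missed it. The largest higher genes by the naming rule were Gulo (1.09 ± 0.20), Ifi27l2a (1.07 ± 0.16), Ppp2r2b (1.01 ± 0.20), Eno3 (0.81 ± 0.15) and Tmem158 (0.80 ± 0.13). Lower were Adh1, an alcohol dehydrogenase (-0.76 ± 0.15), Pdlim2 (-0.74 ± 0.13) and Wnt5a (-0.72 ± 0.13), together with Cxcl10 (-6.45 ± 0.86) and Gdf15 (-2.60 ± 0.52), of which 59.9 and 73.9% of the UMIs came from 1 intermediate cell each. The steroid enzymes Cyp11a1 (-0.16 ± 0.04, adjusted p = 0.122), Hsd3b1 (-0.14 ± 0.06, adjusted p = 0.459) and Cyp21a1 (-0.16 ± 0.06, adjusted p = 0.343) did not pass. Of the lists, 2 of 9 glomerulosa identity genes passed as higher, and no other list had more than 1 gene past the threshold in a direction. DESeq2 called 33 genes, 9 of them among the 44.

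Ly6d varied more between classes and cells than its summed level shows. In single cells of library 1 its median was 17220 CPM in double-low cells, 11490 in intermediate, 6078 in Cyp11b1-high and 3544 in Cyp11b2-positive cells, and in library 2 it was 12630, 8855, 2941 and 226 CPM in the same order. The lower quartile of Cyp11b2-positive cells was 74.7 CPM in library 1 and 0 in library 2. The double-low cells were themselves spread, with quartiles of 9622 to 23490 CPM and 6625 to 18330 CPM. Fdx1 had medians of 1187 and 992 CPM in double-low cells and 4828 and 4454 CPM in Cyp11b2-positive cells, and the upper quartiles of double-low cells, 2227 and 1892 CPM, lay below the lower quartiles of Cyp11b2-positive cells, 2928 and 2459 CPM. For Dab2 the ranges between the quartiles of these 2 classes overlapped in both libraries.

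**Figure D5:**
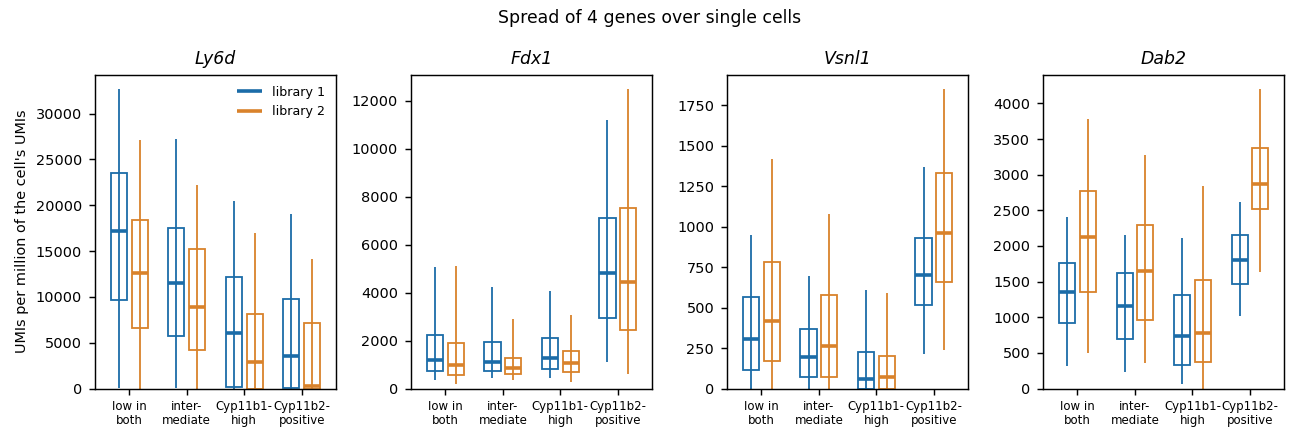
Level of Ly6d, Fdx1, Vsnl1 and Dab2 in single cells (CPM of the cell) by class and library; boxes run between the quartiles, thick lines are medians and thin lines run from the 5th to the 95th percentile. Ly6d medians were 17220 and 12630 CPM in double-low cells and 3544 and 226 CPM in Cyp11b2-positive cells, and Fdx1 medians 1187 and 992 CPM against 4828 and 4454 CPM.

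Cells just inside and outside the limits are described with no test. Double-low cells with Cyp11b1 of 50 to 100 CPM (147 and 74 cells of libraries 1 and 2) had 378 and 516 CPM of Vsnl1, against 324 and 393 CPM in cells outside the limit at 100 to 150 CPM (69 and 31). Ly6d was at 15300 and 12320 CPM inside and 13180 and 11550 CPM outside. The limit on Cyp11b2 is a single UMI. All double-low cells together had 1895 and 1566 CPM of Fdx1, against 3228 and 3433 CPM in cells with exactly 1 Cyp11b2 UMI that otherwise met the rule (328 and 132 cells) and 5011 and 5419 CPM in those with 2 or more (786 and 268). For Vsnl1 the values in the same order were 392 and 515 CPM, 608 and 789 CPM, and 723 and 1003 CPM, and for Ly6d 17050 and 13290 CPM, 11610 and 7912 CPM, and 6727 and 3914 CPM. Median depth rose along the same steps, at 17130 and 14750 UMIs, 19350 and 15780 UMIs, and 21990 and 19150 UMIs, and its part in these values was not tested. Double-low cells of at least 20000 UMIs (306 and 38 cells) had 2306 and 2129 CPM of Fdx1.

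The double-low cells also differed in Shh, a gene of the rule. Cells with Shh of at least 100 CPM (1058 and 438 in libraries 1 and 2) were compared with cells without a Shh UMI (80 and 67). Of 10748 genes tested 50 passed (0.465%), 9 higher (0.0837%) and 41 lower (0.381%) in Shh-positive cells, with 3 (0.0279%) and 25 (0.233%) at least 2-fold apart. Lpl, lipoprotein lipase, had 44.3 and 38.0 CPM in Shh-positive cells against 17.1 and 8.47 CPM in Shh-negative cells (1.60 ± 0.27, adjusted p = 8.67e-05), and the mitochondrial peptidase Mipep (1.16 ± 0.27), Ly6k (1.27 ± 0.25), Arhgap26 (0.99 ± 0.23) and Smarca1 (0.78 ± 0.19) were higher. None of these 5 passed with DESeq2 (adjusted p of Lpl = 0.537). The largest lower genes, Lyz2, Tyrobp, Ctss, Lgals3 and Coro1a, are expressed by macrophages and other leukocytes, and 61.0 to 87.5% of their UMIs in Shh-negative cells came from 1 cell. Shh-negative cells were shallower: medians were 17427.5 and 15180.5 UMIs in Shh-positive cells against 14169.5 and 9327 UMIs in Shh-negative cells, and with thinned cells 10 genes passed.

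Against all other passing cells together, the double-low cells had more Ly6d and less of cholesterol genes, of the fasciculata identity genes and of RNA from blood and dividing cells, which the rule keeps out in part. Of 13023 genes tested 1805 passed (13.9%), 559 higher (4.29%) and 1246 lower (9.57%), and with RLE size factors 933 were higher and 1188 lower. At least 2-fold differences were rare on the higher side, at 10 genes (0.0768%) against 562 on the lower (4.32%). Ly6d (chr15:74762056-74763620) had 17050 and 13290 CPM in double-low cells against 8559 and 5369 CPM in the other cells (1.14 ± 0.05, adjusted p = 3.14e-12). Lynx1, a small protein that modulates nicotinic receptors, had 472 and 405 CPM against 297 and 235 CPM (0.71 ± 0.04, adjusted p = 9.77e-11). Also higher were Fxyd1 (0.71 ± 0.05), the pseudokinase Trib2 (0.70 ± 0.09), Id3 (0.59 ± 0.10), Nfat5, a factor of the response to salt stress (0.54 ± 0.03), Id1 (0.52 ± 0.08), Sept4 (0.51 ± 0.05), Caprin2 (0.50 ± 0.08), Rbm24 (0.50 ± 0.07), Lhfpl2 (0.50 ± 0.07) and Adamts10 (0.49 ± 0.09). Id1, Id3, Caprin2 and Adamts10 did not pass with DESeq2, nor Id1 and Adamts10 with thinned cells.

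Scarb1 had 162 and 198 CPM in double-low cells against 242 and 348 CPM in the other passing cells (-0.69 ± 0.05, adjusted p = 2.98e-09), and Akr1b7 had 822 and 691 CPM against 1217 and 1242 CPM (-0.71 ± 0.05, adjusted p = 1.42e-09). Abcb1b, a drug efflux transporter, had 22.4 and 23.5 CPM against 73.0 and 233 CPM (-2.35 ± 0.18, adjusted p = 1.33e-08). Its low level was not particular to double-low cells. Abcb1b was at 20.4 and 17.6 CPM in Cyp11b2-positive cells, 23.4 and 20.8 CPM in intermediate cells and 47.6 and 55.2 CPM in Cyp11b1-high cells. Cholesterol genes were lower in 20 of 25 (median -0.38), and in 8 of 25 with DESeq2. Fasciculata identity genes were lower in 6 of 10 (median -0.28), and mitochondrial-encoded genes in 12 of 13 (median -0.22). Axin2 was higher, at 119 and 139 CPM against 97.4 and 104 CPM (0.33 ± 0.05, adjusted p = 3.44e-05), and 6 of 22 genes of hedgehog and FGF signalling passed as higher and 1 as lower (median 0.14), with no higher one by DESeq2. Vsnl1 (-0.27 ± 0.04, adjusted p = 8.86e-05) and Agtr1b (-0.51 ± 0.06, adjusted p = 3.32e-06) were lower, and Nr5a1 (-0.06 ± 0.04, adjusted p = 0.365) and Dab2 (0.01 ± 0.03, adjusted p = 0.888) did not pass.

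The largest lower genes were S100a8, S100a9, C1qa, C1qb, H2-Ab1, H2-Aa and Cd52 of leukocytes, Hbb-bs, Hbb-bt, Hba-a1 and Hba-a2 of erythrocytes, and Cenpf of dividing cells, at -3.64 to -5.91. S100a8, C1qb, Hba-a1 and Hbb-bt did not pass with DESeq2 (adjusted p = 0.173, 0.232, 0.222 and 0.363 in this order). Directions turned for Hbb-bs (0.45), Hba-a1 (0.13) and Hba-a2 (0.92) with blood-marker cells left out, and for Cd52 (1.06, adjusted p = 0.0263) with the other cells limited by Star and Malat1. Summed lymphocyte markers stood at 1.47 and 6.31 CPM in double-low cells against 19.1 and 62.0 CPM in the other passing cells, macrophage markers at 21.5 and 51.4 CPM against 230.0 and 475 CPM, and erythrocyte markers at 29.2 and 0.263 CPM against 399 and 484 CPM. With cells carrying blood cell markers left out 1621 genes passed, 655 higher and 966 lower, and Ly6d differed by 1.13. Without the library term 14 genes passed here, 42 against Cyp11b2-positive cells and 41 against Cyp11b1-high cells.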

How the data were processed

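The 2 libraries of sorted mouse adrenal cells, deposited as UMI counts per gene and barcode, were analysed. Per the file headers the authors made the counts with Cell Ranger 3.1.0, and per the submitters' processing notes on build mm10. The labels do not say how barcodes were called. Barcodes were filtered and classed as described, per-cell CPM was computed, free RNA was not subtracted, and doublets stayed in. Scrublet (scanpy 1.11.5) scored 45 and 13 double-low cells of libraries 1 and 2 among the highest, taken at 0.8% per 1000 barcodes, and they were left out in an alternative.

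UMIs were summed per class and library. Double-low cells and all other passing cells gave 4 sums, and the 5 classes with at least 20 cells in each library gave 10 sums. The planned sixth class, cells low in Wnt4 and Shh, had 3 and 17 cells and was left out. edgeR 4.0.16 (R 4.3.3, limma 3.58.1) fitted class and library with TMM scaling and its low-count filter. Both sums of a pair come from the same library, which is the pairing. The 2-group fits leave 1 residual degree of freedom and the class fit 4, and gene variances were drawn toward a common trend with 17.1 prior degrees of freedom in the fit with all other passing cells, 11.9 in the class fit and 63.8 along Shh, so an SE need not show the spread of its own gene. The 11 rule genes got no test. The model was tested on simulated data.

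Named genes passed the test with 1 sign in both libraries, had at least 20 CPM in the higher class and no gene-model name: the 12 largest per direction against other passing cells, 8 against Cyp11b2-positive and Cyp11b1-high cells, and 5 in the other comparisons, up to 2 per list and direction, and genes fixed by name. Members, lists and tests were chosen with earlier results of these data known. Of the list symbols Atp5o matched no single feature. Reads of paralogs (Cyp11b1 and Cyp11b2, Hsd3b1 and Hsd3b6, haemoglobins) may be shared. Coordinates are GENCODE vM21 (GRCm38). Alternatives were DESeq2 1.42.0, RLE size factors, a fit without the library term or without the low-count filter, cells thinned to 5000 UMIs, cells of at least 10000 UMIs, at most 15% mitochondrial UMIs, doublets removed, a Cyp11b1 limit of 50 CPM, other cells limited by Star and Malat1, each library alone and, chosen after seeing the data, cells with at least 3 leukocyte or 10 erythrocyte marker UMIs left out.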

Additional observations from a re-analysis of the deposited data

How the results depend on the processing

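Of 2882 values of 243 named gene differences under the alternatives, 2540 kept their direction and side of the threshold, or stayed within 1 SD of the main value where a library alone gave no test. The SD was taken from the same 2 single-library values. The 200 and 234 of the 2540 that rest on it were therefore nearly fixed in advance and show no stability. Calls were lost in 243 (180 of them without the library term), gained in 27, and 52 single-library values moved by more. Each library alone leaves no residual degrees of freedom, so it gives no count of genes. The replicate block is the library term. Without it (no block) 14 genes passed against other passing cells, 42 against Cyp11b2-positive cells, 41 against Cyp11b1-high cells, 0 against intermediate cells (211 at an unadjusted p below 0.05) and 9 between Shh-positive and Shh-negative cells. DESeq2 called 397, 1041 and 1123 genes in the first 3 comparisons and 15 along Shh, and thinned cells gave 840, 973, 986 and 10. Against intermediate cells 294 genes passed with no low-count filter, 69 in cells of at least 10000 UMIs and 82 with blood cell markers left out. Along Shh 86 passed with no filter and 28 with blood cell markers left out.

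The share of double-low cells, 26.0% over both libraries, was 25.5 to 27.3% in single libraries, 22.8% with a Cyp11b1 limit of 50 CPM, 28.1% in cells of at least 10000 UMIs and 38.0% with the rule applied to thinned cells. Directions turned for few genes. Against other passing cells, with blood cell markers left out, Hbb-bs was at 0.45, Hba-a2 at 0.92 and Hba-a1 at 0.13, and with the other cells limited by Star and Malat1 Cd52 was at 1.06. Dab2 was at -0.0067 with no filter, -0.011 in deep cells, -0.043 with the others limited and -0.0057 without blood cell markers. With thinned cells Cyp11a1 was at 0.013 and Cre at 0.00094 against Cyp11b2-positive cells. Hbb-bs was at 0.92 against Cyp11b1-high cells with blood cell markers left out. Against intermediate cells, thinning gave Scarb1 -0.019, Lef1 0.040, Nr0b1 0.013 and Abcb1b -0.099, no filter gave Lef1 0.012 and Nr0b1 0.013, and Nr0b1 was at 0.016 without the block, 0.00049 without doublets and 0.0083 with the lower Cyp11b1 limit. None of these turned values passed except Cd52, and the cause of the turned directions and of the lost calls was not tested. Depth limits the rule, whose Cyp11b2 limit is a single UMI; thinning changes every limit at once.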

Other observations

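Genes beside the enzymes that define the double-low cells were looked at together. Within 200 kb on each side of Cyp11b1 and Cyp11b2 on chromosome 15 (chr15:74834125-74841643 and chr15:74851010-74856318), 9 neighbours were tested against Cyp11b2-positive cells, of which 3 were higher and 2 lower in double-low cells, beside 14.7% of all genes called. Ly6d (1.65 ± 0.08, adjusted p = 1.21e-09), Lynx1 (0.99 ± 0.06, adjusted p = 3.08e-08) and Them6 (0.25 ± 0.08, adjusted p = 0.0469) were higher, and Ly6k (-0.89 ± 0.22, adjusted p = 0.0121) and Ly6e (-0.28 ± 0.05, adjusted p = 0.000976) lower. Against Cyp11b1-high cells Ly6d (1.43 ± 0.08, adjusted p = 2.72e-08), Lynx1 (0.76 ± 0.06, adjusted p = 7.2e-07) and Them6 (0.35 ± 0.08, adjusted p = 0.00766) were higher, and Ly6k (-0.75 ± 0.23, adjusted p = 0.0344) lower, beside 16.4% of all genes called. Gml2, which overlaps Cyp11b1, and Ly6a were also called lower but had 0.092 and 0 CPM and 0.368 and 0.263 CPM in double-low cells, near the level of 3 UMIs (0.138 and 0.394 CPM). Ly6d and Lynx1 encode proteins of the Ly6 family. The window was chosen after the values of Ly6d and Lynx1 had been seen, both comparisons share the sums of the double-low cells, and whether the position has a part in the levels was not tested.

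The reporter and transgene features also differed. The eGFP feature had 2394 and 2624 CPM in double-low cells of libraries 1 and 2, against 3374 and 3960 CPM in Cyp11b2-positive cells (-0.59 ± 0.04, adjusted p = 6.76e-08), and against 2082 and 2314 CPM in Cyp11b1-high cells (0.25 ± 0.04, adjusted p = 0.00046). The bGH feature, a polyadenylation sequence, differed by -0.63 ± 0.05 against Cyp11b2-positive cells (adjusted p = 3.74e-07) and by 0.27 ± 0.05 against Cyp11b1-high cells (adjusted p = 0.0021), a call lost with thinned cells (adjusted p = 0.0538). Cells with Ptprc RNA, leukocytes, held 2519 and 2971 CPM of eGFP and 333 and 412 CPM of bGH, with Cre at 0. The Cre feature had 44.7 and 54.3 CPM in double-low cells, against 40.9 and 66.3 CPM in Cyp11b2-positive cells, and did not pass (adjusted p = 0.649).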
